A study of Mus musculus with 13 samples.

Results

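Bidirectional promoter regions are places where 1 called region of H3K4me3, the trimethylated histone that marks active promoters, touches the promoters of genes on opposite strands. They were taken as the distinct autosomal regions of the H3K4me3 table listed with at least 1 gene on the plus strand and at least 1 on the minus strand, with an end minus start under 3000 bp. This gave 1466 of 14006 distinct regions, or 10.9% of the 13495 autosomal ones, and 2728 genes, or 19.5% of the 14004 autosomal genes listed. They were set against 11738 single-gene regions and 152 regions whose genes all lie on the same strand, under the same length limit.

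The 13 libraries are chromatin immunoprecipitations of H3K4me3 from hippocampus of C57BL/6 mice, followed by sequencing. The groups were wild type given vehicle, DMSO-PEG (n = 4), wild type given SRT2104, an agonist of the deacetylase SIRT1 (n = 3), knockout labelled not-treated (n = 2) and knockout given SRT2104 (n = 4). The knockout lacks floxed exons 4 and 5 of Mtr, which encodes methionine synthase, through Cre under the Thy-1.2 promoter, a neuronal promoter, and SRT2104 was gavaged at 50 mg/kg from day 15 to day 36, 9 times at 3 per week. Wild types carry the genotype label MLML-WT and knockouts TC;MLML_MTR-KO, so the token MLML is shared by all 4 groups, and no label says that the not-treated knockouts were gavaged, so gavage cannot be told apart from genotype or compound where they enter. Both untreated knockouts were female and all 4 vehicle mice male, so sex cannot be told apart from genotype between these groups. SRT2104 wild types were female in replicate 1 and male in replicates 2 and 3. SRT2104 knockouts were female in replicates 1 and 3 and male in replicates 2 and 4, so sex is unevenly spread in the other comparisons too. Whether libraries come from separate mice is not in the labels, so p-values measure the spread between libraries, and in whole tissue fewer marked cells and less mark per cell cannot be told apart.

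Divergent gene pairs share a short stretch of DNA from which transcription starts outward in both directions. Such promoters are usually rich in CpG and poor in TATA boxes, and many serve housekeeping genes of DNA repair, mitochondria and metabolism. H3K4me3 is laid down on the nucleosomes that flank an active start, and the methyl group comes from S-adenosylmethionine, which is made from the methionine that methionine synthase regenerates with a cobalamin cofactor.

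The stretch between the paired starts is shown for 7 pairs that are known as divergent in mammals, of which Mmab and Mtrr act on cobalamin, the cofactor of methionine synthase, and Sirt3 is a mitochondrial relative of SIRT1. Sequences are from RefSeq promoter windows on build GRCm38.p6 and run from the minus-strand start to the plus-strand start. Capitals mark matches on either strand to CCAAT, to GGGCGG (the GC box) and to CCGGAAG (part of the ETS family motif). Adjacent or overlapping matches run together.
Mtrr to Fastkd3, chr13:68582104-68582210, plus strand: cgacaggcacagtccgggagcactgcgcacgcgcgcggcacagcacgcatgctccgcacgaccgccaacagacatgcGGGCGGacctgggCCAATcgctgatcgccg
Mmab to Mvk, chr5:114444027-114444269, plus strand: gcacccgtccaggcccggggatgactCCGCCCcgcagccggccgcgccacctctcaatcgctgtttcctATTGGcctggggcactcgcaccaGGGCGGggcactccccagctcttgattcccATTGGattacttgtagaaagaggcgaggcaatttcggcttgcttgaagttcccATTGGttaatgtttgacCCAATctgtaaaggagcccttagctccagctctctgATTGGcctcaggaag
Sirt3 to Psmd13, chr7:140882309-140882394, plus strand: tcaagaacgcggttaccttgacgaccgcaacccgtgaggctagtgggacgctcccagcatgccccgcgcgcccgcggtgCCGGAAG
Hspd1 to Hspe1, chr1:55087932-55088148, plus strand: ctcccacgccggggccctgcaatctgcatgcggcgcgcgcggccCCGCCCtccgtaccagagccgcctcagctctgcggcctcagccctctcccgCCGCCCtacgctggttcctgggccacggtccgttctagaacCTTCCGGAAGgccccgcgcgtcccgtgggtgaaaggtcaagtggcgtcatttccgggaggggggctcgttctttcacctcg
Brca1 to Nbr1, chr11:101551955-101552107, plus strand: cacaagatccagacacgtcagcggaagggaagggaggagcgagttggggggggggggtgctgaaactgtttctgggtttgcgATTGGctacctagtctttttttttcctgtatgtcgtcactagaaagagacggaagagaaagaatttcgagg
Mrps12 to Sars2, chr7:28741821-28741968, plus strand: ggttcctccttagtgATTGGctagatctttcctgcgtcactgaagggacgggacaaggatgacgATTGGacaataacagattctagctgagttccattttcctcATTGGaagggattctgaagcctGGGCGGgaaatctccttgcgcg
Psmb9 to Tap1, chr17:34187330-34187556, plus strand: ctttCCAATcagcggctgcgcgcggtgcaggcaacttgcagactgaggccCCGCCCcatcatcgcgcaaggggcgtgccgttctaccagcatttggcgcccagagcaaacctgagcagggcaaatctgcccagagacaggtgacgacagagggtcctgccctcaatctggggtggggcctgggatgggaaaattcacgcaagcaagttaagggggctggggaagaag

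The 7 stretches were 86 to 243 bases long and 50 to 71% G or C, with 6 to 25 CpG. The longest, between Mmab, an adenosyltransferase that makes adenosylcobalamin, and Mvk, mevalonate kinase, held 5 CCAAT matches and 2 GC boxes. The shortest, between Sirt3 and Psmd13, a proteasome subunit, held 1 ETS match and no CCAAT or GC box. The stretch between Mtrr, the reductase that reactivates methionine synthase, and Fastkd3, a mitochondrial RNA-binding protein, held 1 CCAAT match and 1 GC box. Between Hspd1 and Hspe1, the mitochondrial chaperonin and its co-chaperonin, there were 2 GC boxes and 2 overlapping ETS matches on opposite strands. No match in the 7 was found to TATAAA, nor to CATGCGC, part of the NRF1 motif. There was none to the YY1 motif core GATGGCG either, which says only that these letters are not in these stretches.

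Over whole RefSeq windows of 250 bases before to 50 after a start, searched on both strands, the ETS core CCGGAAG had the widest gap in share to single-gene regions of the 6 motifs. It was in 24.2% of 2794 windows of genes at bidirectional regions and in 31.1% of 1518 windows of divergent pairs with starts under 300 bp apart. It was in 13.8% of 10768 windows at single-gene regions and 8.86% of all 32851 windows. GATGGCG was in 8.70%, 10.9%, 5.01% and 3.49% of these sets in turn, and CATGCGC in 7.59%, 8.76%, 6.09% and 3.91%. TATAAA went the other way, at 5.51%, 4.88%, 7.39% and 13.6%. CCAAT matches were in 39.1%, 39.1%, 36.5% and 37.4% of windows, and GC boxes in 64.4%, 69.6%, 62.6% and 35.7%. The windows of paired genes overlap and so are not independent, and these shares are descriptions. Median G or C was 62% at bidirectional and 61% at single-gene regions, with 23 and 20 CpG per window.

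The paired starts lay close together, within a limit set by the rule, since both promoter windows must touch the same region. The nearest plus-strand and minus-strand starts were a median of 164 bp apart (quartiles 55 and 453 bp) on build mm9, which the table uses. In 1240 regions (84.6%) the plus-strand start lay to the right of the minus-strand start, as in a divergent pair. In 226 the starts crossed, so that the genes overlap at their 5′ ends. Bidirectional holds for these only in the sense of the strand rule. Windows run 2000 bp upstream and 500 bp downstream, so divergent starts can lie further apart than crossing ones and still be listed. The divergent share is thus in part set by the rule. Both starts lay inside the region in 1109 (75.6%), 1 in 296 and neither in 61, whereas 90.8% of single-gene regions held their start. Distances of 0 to 100 bp were the most common, with 302 regions, of which 298 held both starts.

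Level per length changed little with this distance. Regions with starts 0 to 100 bp apart had a median vehicle level of 454 normalised counts per kb, and those 1000 to 2000 bp apart 398, with 24 of 164 holding both starts. The rank correlation of distance with level over divergent regions was -0.13, a description over regions that share libraries. Most regions listed 2 genes (1432), 31 listed 3, 2 listed 4 and 1 listed 5. The same pair was listed at 2 or more regions for 109 of 1352 distinct pairs, so 223 regions share their genes with another. By chromosome, the share of regions that were bidirectional ranged from 7.75% on chromosome 10 to 14.1% on chromosome 17.

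**Figure D1:**
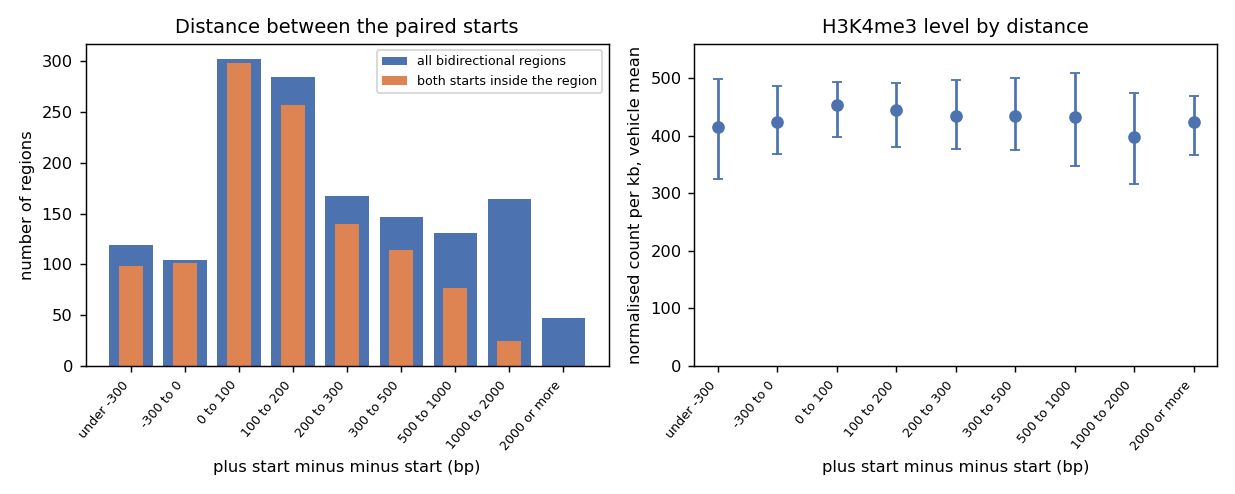
Left, number of bidirectional regions by the distance from the minus-strand to the plus-strand start (bp, negative where starts cross), with the regions that hold both starts as inner bars. Right, median vehicle level per kb with quartiles in the same bins, which stays between 398 and 454 while the number of regions peaks at 302 for 0 to 100 bp.

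Bidirectional regions were longer and held more H3K4me3 per length than single-gene regions. Their median length was 1703 bp against 1452 bp, and their median vehicle level 437 normalised counts per kb against 356, with 395 for same-strand regions. A longer region touches a second promoter window more easily, so the difference in length is in part set by the rule. Only 2.11% of bidirectional regions had a vehicle mean under 100 normalised counts, against 11.0% of single-gene regions. The lower quartile differed more than the upper, at 371 against 229 per kb and 493 against 439 per kb. Within length classes the gap was widest in short regions, at 332 against 76.0 per kb under 750 bp, and narrower at 2500 to 3000 bp, at 477 against 418 per kb. It was narrowest in the classes with 215, 336 and 317 bidirectional regions, of median length 1396, 1632.5 and 1867 bp. The levels there were 399 against 369, 436 against 397 and 451 against 416 per kb. Single-gene level was itself lowest in the shortest class, and the part of length in the unmatched gap was not tested. A library's background reads and the calling of a region enter both classes, and their part in the gap was not tested.

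The gap was present in each of the 13 libraries. The median bidirectional level per kb was 437 ± 9.79 in vehicle wild types (SD, n = 4), 417 ± 11.3 in SRT2104 wild types (n = 3), 447 ± 25.9 in untreated knockouts (n = 2) and 427 ± 4.76 in SRT2104 knockouts (n = 4). The single-gene medians were 357 ± 6.81, 345 ± 6.94, 365 ± 15.3 and 353 ± 2.13. The ratio of the bidirectional to the single-gene median was 1.225 ± 0.00617, 1.209 ± 0.00844, 1.224 ± 0.0198 and 1.209 ± 0.00637 in these groups, and its range over libraries was 1.200 to 1.238. Vehicle wild types, at 1.219 to 1.231, lay wholly above SRT2104 wild types, at 1.200 to 1.217, and SRT2104 knockouts, at 1.202 to 1.216. The untreated knockouts had 1.238 and 1.210 and overlapped each of these groups in range. These differences in the ratio were not tested, and the ratio was not matched for length.

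**Figure D2:**
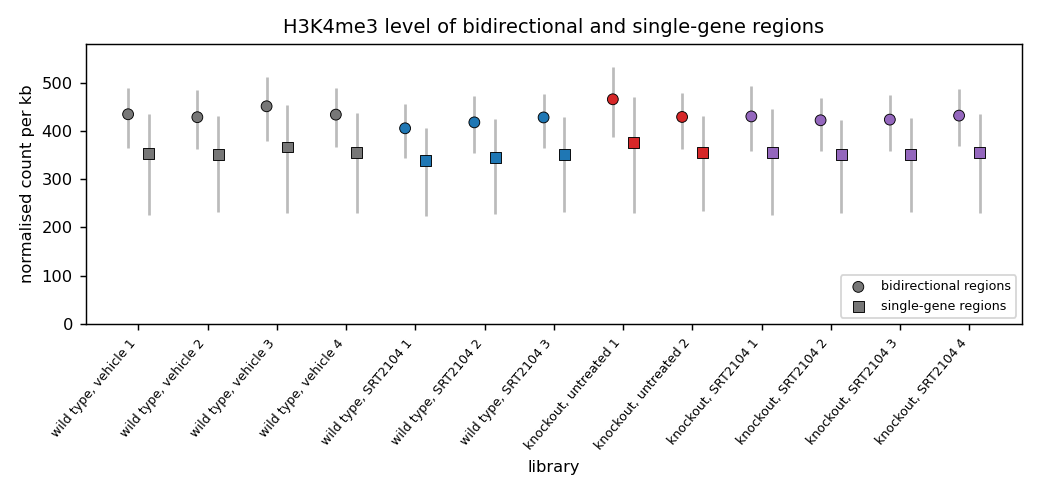
Median normalised count per kb of bidirectional (circles) and single-gene regions (squares) in each library, coloured by group, with bars from the lower to the upper quartile over regions. The bidirectional median lies above the single-gene median in each library, by 1.200 to 1.238 times.

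Protein-coding genes facing each other made up 1090 regions (74.4%), and a coding gene facing a long noncoding RNA 329 (22.4%). Coding pairs had a median vehicle level of 444 per kb and starts 198 bp apart, and coding with noncoding pairs 423 per kb and 94 bp. By contrast, 97.4% of single-gene regions listed a coding gene and 1.55% a noncoding RNA. Of 1196 unnamed or noncoding genes in the table, 477 (39.9%) were at bidirectional regions.

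The gene lists differed in their share at bidirectional regions. Beside the 19.5% of all autosomal genes, the share was 49.2% of replication-dependent histone genes (30 of 61), which sit in head-to-head clusters, and 42.5% of DNA repair genes (48 of 113). It was 40.8% of mitochondrial ribosomal proteins (31 of 76), 34.9% of oxidative phosphorylation subunits (30 of 86), 30.8% of aminoacyl-tRNA synthetases (12 of 39) and 30.5% of chaperones (25 of 82). The methionine, folate and cobalamin list had 25.6% (11 of 43), and the H3K4 methylation and SIRT1 list 11 of 44 genes. DNA replication genes had 19 of 76, proteasome genes 22.2% (10 of 45) and cytosolic ribosomal proteins 19.2% (15 of 78), near the overall share. Lower shares were seen for developmental transcription factors, at 14.4% (13 of 90), zinc finger genes named Zfp, at 9.72% (31 of 319), and excitatory and presynaptic genes, at 8.24% (7 of 85). Genes of a cluster are not independent, and no enrichment was tested.

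**Figure D3:**
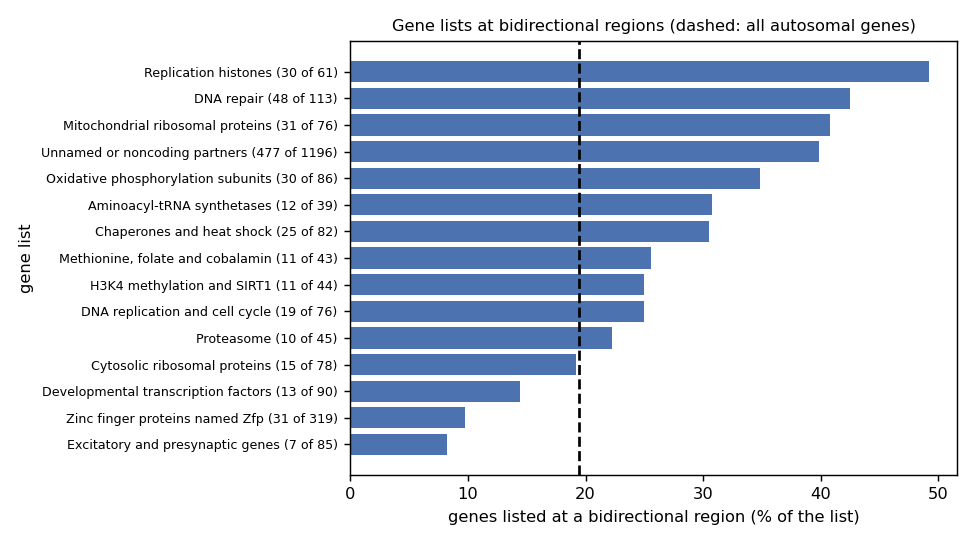
Share of each gene list (%) found at bidirectional regions, with the number of genes found and the number in the table. The dashed line is the 19.5% of all autosomal genes, and the bars run from 8.24% for excitatory and presynaptic genes to 49.2% for replication histones.

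Within these lists the level per length differed by role. The bidirectional regions of oxidative phosphorylation genes had a median vehicle level of 463 per kb, those of mitochondrial ribosomal proteins 433 and those of DNA repair genes 434, against 437 for all bidirectional regions. Among them were Atp5j, an ATP synthase subunit that faces Gabpa, an ETS family factor of mitochondrial genes, and Rev3l, the catalytic subunit of a translesion DNA polymerase, whose partner is E130307A14Rik. Developmental transcription factors at bidirectional regions had a median of 147 per kb and replication histones 302. Their single-gene counterparts had 126 and 297 per kb. The H3K4 methylation and SIRT1 list went the other way, with 442 per kb at bidirectional and 500 at single-gene regions. The 7 excitatory and presynaptic genes, at 9 regions that include those of Synj1, a synaptic phosphoinositide phosphatase, and Erc1, an active zone scaffold, had a median of 452 against 311 per kb at single-gene regions.

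The highest and lowest members differed widely. The highest vehicle levels per kb were 718 ± 29.7 (SD, n = 4) at Arid4a, a chromatin regulator, with its partner 3110056K07Rik, and 717 ± 86.6 at Pcdh10, a protocadherin, with 2610316D01Rik, where the region was 334 bp long and held neither start. Irs2, an insulin receptor substrate, had 664 ± 10.6, Ints6, an Integrator subunit, 661 ± 34.9, and Psma7, a proteasome subunit facing Ss18l1, 661 ± 22.9. Among the 5 lowest levels were 39.8 ± 9.13 at Fgf21, a metabolic hormone, with Fut1, 42.6 ± 9.82 at the NADPH oxidase Duox1 with its maturation factor Duoxa1, and 44.7 ± 9.77 at Rasal3, a Ras GTPase activator of blood cells. The ADP-ribosyltransferases Art1 and Art5 had 49.7 ± 6.69. None of these 4 held both starts. Near the length limit, the regions of Iscu with Sart3, Pcdh7 with 4932441J04Rik and 3 histone genes around Hist2h2be were 2975, 2982 and 2985 bp long, and those of Dock4 with Zfp277, Kmt2c with 4831440E17Rik and Peg10 with Sgce were 3024, 3071 and 3079 bp and so left out.

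Of 20 pairs listed as known divergent pairs, 18 were found, at 19 regions. Their vehicle levels ranged from 94.4 ± 15.4 per kb at Col4a3 with Col4a4, collagens of basement membranes of kidney and lung, to 533 ± 14.2 at the shorter of 2 regions of Trp53 with Wrap53. The related pair Col4a1 and Col4a2, collagens of most basement membranes, had 413 ± 21.4, above Col4a3 and Col4a4 by more than the spread of either. Hspd1 with Hspe1 had 526 ± 23.7, Psmd13 with Sirt3 508 ± 14.0, Surf1 with Surf2 509 ± 25.2 and Brca1, a DNA repair gene, with Nbr1, an autophagy receptor, 359 ± 3.74. Of the pairs not found, Prdx1 was at a single-gene region and Mmachc was listed with Ccdc163.

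The check on the targeted gene says nothing about the deletion, since the H3K4me3 region of Mtr is at its start, on chr13:12349306-12350575, and not at exons 4 and 5. Mtr was at a single-gene region, with normalised counts of 488.5, 492.8, 489.2 and 486.4 in vehicle wild types and 510.2 and 426.9 in untreated knockouts. Libraries held 3963196 to 9009109 reads in regions. All 9 hippocampal neuron markers had a region. Summed over markers with a region, oligodendrocyte genes (12 of 13) had 2811 to 3696 in untreated knockouts and 3020 to 3989 in vehicle wild types, astrocyte genes (7 of 7) 2048 to 2063 and 1743 to 1903, microglia genes (3 of 6) 79.4 to 93.1 and 60.1 to 99.4, and endothelial and pericyte genes (5 of 5) 1303 to 1459 and 1143 to 1271. Choroid plexus and ependyma genes (3 of 5) had 375 to 451 and 476 to 740, and Hox genes of hindbrain and trunk (2 of 5) 17.0 to 22.4 and 34.1 to 57.3, near the floor of the table. Astrocyte, endothelial, choroid plexus and Hox sums did not overlap between these groups. Their part in the results below was not tested.

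The first comparison asks what the loss of methionine synthase without SRT2104 goes with, in untreated knockouts against vehicle wild types. No bidirectional region passed an adjusted p under 0.05 in limma's moderated test with Benjamini-Hochberg adjustment over 14006 regions, of which 0.00714% passed. edgeR called 0 of the members and DESeq2 1, Taf4a, beside 0.178% of all regions. At an unadjusted p under 0.05 there were 66 (4.50%), of them 46 higher in knockouts, against 9.58% of single-gene regions and 9.14% of all regions. Single libraries moved this count. Without untreated knockout replicate 2 it was 246 (16.8%, beside 15.2% of all), 232 of them higher. Without replicate 1 it was 91 (6.21%, beside 7.86% of all), 23 of them higher. Leaving out vehicle replicates 1, 2 and 3 gave 39 (2.66%), 44 (3.00%) and 130 (8.87%). The shares of all regions were then 6.09%, 6.32% and 16.3%, so they moved too. The median log2 difference was 0.03 in bidirectional and 0.03 in single-gene regions, and 72.6% and 64.1% were above 0. The bidirectional median was -0.03, with 31.8% above 0, without untreated knockout replicate 1 and 0.10 without replicate 2, so its sign rested on 1 library. These medians also depend on the scaling. With TMM factors on the recovered reads they were 0.00 in both classes, 49.5% of bidirectional differences were above 0, and the 77 members (5.25%, beside 8.97% of all) at an unadjusted p under 0.05 included 32 higher. The middle 90% of bidirectional differences ran from -0.11 to 0.14, against -0.26 to 0.25. At a matched vehicle mean of 600 to 800 the median absolute difference was 0.04 in bidirectional and 0.05 in single-gene regions, and 4.88% and 8.57% had an unadjusted p under 0.05.

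The 3 members with the smallest p in each direction are described as values that did not pass. The region of Palmd, a paralemmin family protein, with 4930455H04Rik lies on chr3:116669579-116671985 and had normalised counts of 545.8, 594.4, 612.2 and 574.4 in vehicle wild types and 662.3 and 703.4 in untreated knockouts. Both knockouts lay above the 4 wild types. The log2 difference was 0.23 ± 0.06 (SE; limma adjusted p = 0.223). Taf4a, a subunit of the general transcription factor TFIID, with 4921531C22Rik on chr2:179709426-179712292, had 1170, 1119, 1185 and 1255 in vehicle wild types and 1607 and 1317 in untreated knockouts. The groups did not overlap, the log2 difference was 0.30 ± 0.09 (limma adjusted p = 0.312), and the DESeq2 adjusted p was 0.0489. Nefh, the heavy neurofilament subunit, with Ap1b1, an adaptor complex subunit, had 615.2, 682.0, 795.3 and 698.4 against 854.1 and 798.3, with vehicle replicate 3 just under the lower knockout, and a log2 difference of 0.25 ± 0.07 (limma adjusted p = 0.306).

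Of the 3 lower members named by p, the largest difference was at Hspa1a, the stress-inducible Hsp70, with Hspa1l, its testis-type relative, on chr17:35108829-35109876. Normalised counts were 169.2, 204.3, 164.3 and 209.3 in vehicle wild types and 146.4 and 93.07 in untreated knockouts. Both knockouts lay below the wild types, with a log2 difference of -0.66 ± 0.19 (limma adjusted p = 0.311), and reads from the near-identical copy Hspa1b may be split or lost here. SRT2104 knockouts had 156.0, 162.1, 156.8 and 220.5 and SRT2104 wild types 178.6, 147.8 and 223.3, all above both untreated knockouts. The pair 4930525G20Rik and Gm10037 on chromosome 13 had a log2 difference of -0.36 ± 0.12 (limma adjusted p = 0.366), which came to -0.12 with sex as a covariate. Chdh, choline dehydrogenase, which feeds betaine to methionine synthesis, with Il17rb had 215.2, 211.8, 146.3 and 197.0 against 172.0 and 120.8, groups that overlap through vehicle replicate 3, with a log2 difference of -0.40 ± 0.15 (limma adjusted p = 0.403).

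Vehicle replicate 3 decided how many members passed. Without it, limma's adjusted p was under 0.05 for 22 bidirectional regions, 19 higher and 3 lower in knockouts, beside 4.03% of all regions. In 18 of the 22, replicate 3 was the highest of the 4 vehicle libraries. These 22 were selected by leaving replicate 3 out, so its place among them was in part chosen. Over all bidirectional regions its median log2 deviation from the vehicle mean was 0.05, against -0.03 to -0.01 in the other vehicle libraries. The smallest p was at Gng3, a G protein gamma subunit, at a log2 difference of 0.43 (adjusted p = 0.000299), with 0.37 at its shorter region. The other higher log2 differences were 1.07 at Crym, 0.77 at Sv2b, a synaptic vesicle protein, 0.73 at Shh, a secreted morphogen, 0.64 at Dab2ip and 0.64 at Dio3, a thyroid hormone deiodinase. Between 0.28 and 0.32 were Kif21b, a kinesin, Wnt7b, a Wnt ligand, Nefh, Slc7a5, an amino acid transporter, Trim46, Ak5, an adenylate kinase, and Acbd4 with Plcd3. Palmd, Uchl1, a ubiquitin hydrolase, Sez6, Col4a1 with Col4a2 and Syn2, another vesicle protein, had 0.22 to 0.26. The 3 lower ones were Dlx4 (-0.60), Chdh (-0.53) and Plekhg3 (-0.36).

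SRT2104 in knockouts was compared with untreated knockouts. No member passed in limma, where 0% of all regions did, in edgeR (0%) or in DESeq2 (0.207%). At an unadjusted p under 0.05 there were 140 (9.55%), 17 of them higher with SRT2104, against 12.9% of single-gene and 12.5% of all regions. Without untreated knockout replicate 1 there were 59 (4.02%, beside 7.86% of all), 32 of them higher, and without replicate 2 there were 491 (33.5%, beside 22.5% of all), 15 of them higher. The median log2 difference was -0.07 against -0.05 in single-gene regions. It was 0.00, with 50.7% above 0, without untreated knockout replicate 1 and -0.13 without replicate 2. Of bidirectional differences 15.1% were above 0, against 30.4%. With TMM factors the medians were -0.02 and 0.00, 38.6% and 49.8% were above 0, and 40 of the 82 members (5.59%, beside 10.3% of all) at an unadjusted p under 0.05 were higher. At vehicle means of 1000 or more the medians as deposited were -0.07 in both classes, and under 100 they were -0.03 and 0.08. At means of 600 to 800 the median absolute difference was 0.0699 in bidirectional and 0.0682 in single-gene regions. It was slightly larger in bidirectional regions in each level class from 400 up, and smaller in each class below. The smaller matched difference of untreated knockouts against vehicle wild types was thus not general. Summed astrocyte genes had 1691 to 1907 in SRT2104 knockouts, endothelial and pericyte genes 1072 to 1276 and Hox genes 39.4 to 50.7. None of these 3 ranges overlapped that of the untreated knockouts, and their part in these results was not tested.

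The member with the smallest p was Dlx4, a homeobox factor, with A730090H04Rik on chr11:95006431-95007723. Normalised counts were 79.36 and 80.55 in untreated knockouts and 162.2, 121.8, 141.0 and 122.0 in SRT2104 knockouts, and 144.9, 100.5, 82.58 and 124.0 in vehicle wild types. SRT2104 knockouts lay above both untreated knockouts, at a log2 difference of 0.76 ± 0.18 (limma adjusted p = 0.162), and overlapped the vehicle range. The longer of 2 regions of Gng3 with Bscl2, seipin, a lipid droplet protein, on chr19:8911775-8914518 went the other way, with 906.1 and 936.1 in untreated knockouts and 659.9, 702.0, 745.5 and 706.5 in SRT2104 knockouts. The log2 difference was -0.39 ± 0.10 (limma adjusted p = 0.202). Vehicle wild types had 671.6, 692.8, 929.0 and 681.7, so 3 lay in the range of the SRT2104 knockouts and replicate 3 in that of the untreated knockouts.

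The shorter region of the same pair, 724 bp, had a log2 difference of -0.39 ± 0.11 and shares its genes with the longer, so it is not separate evidence. Other small p were at Nptx1, a neuronal pentraxin, with Gm11762 (0.40 ± 0.11), Sybu, syntabulin, with 2310069G16Rik (0.28 ± 0.09), Dand5, a Nodal antagonist, with Gadd45gip1 (-0.22 ± 0.06) and Palmd (-0.22 ± 0.06), with limma adjusted p from 0.216 to 0.240. When only these 6 libraries were fitted, 12 members passed (4 higher, 8 lower), beside 2.59% of all regions. They included Dlx4, both regions of Gng3 and Crym, a thyroid hormone binding protein, at -0.84. Leaving out vehicle replicate 3, which alters only the shared spread here, gave 4 (1 higher, 3 lower), beside 1.46% of all regions.

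**Figure D4:**
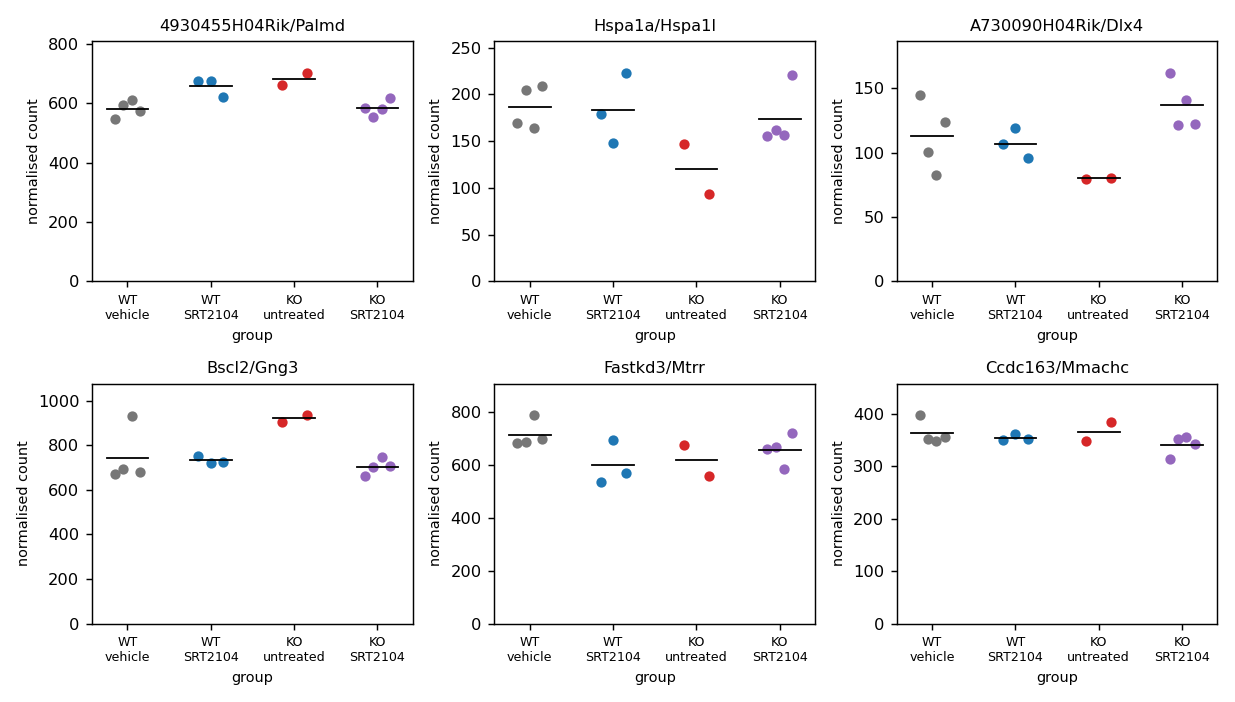
Normalised count in each library (points) with the group mean (bar) for 6 bidirectional regions, in wild type (WT) with vehicle or SRT2104 and knockout (KO) untreated or with SRT2104. For Bscl2/Gng3 the longer region is shown, with 3 vehicle libraries from 671.6 to 692.8 and replicate 3 at 929.0, and the Dlx4 panel has both untreated knockouts near 80.

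SRT2104 in wild type was compared with vehicle. No member passed in limma (0.00714% of all regions did), edgeR (0%) or DESeq2 (0.00714%). There were 227 members (15.5%) at an unadjusted p under 0.05, against 13.1% of single-gene and 13.4% of all regions, and 4 of the 227 were higher with SRT2104. Without SRT2104 wild-type replicate 1 there were 60 (4.09%, beside 3.56% of all regions), and without vehicle replicate 3 there were 140 (9.55%). The median log2 difference was -0.07 against -0.05, and -0.05 against -0.03 without SRT2104 wild-type replicate 1. With TMM factors 121 members (8.25%) had an unadjusted p under 0.05, 38 of them higher, beside 9.57% of single-gene and 9.5% of all regions, and the medians were -0.02 and 0.00. The difference followed level in both classes, from -0.06 at vehicle means of 400 to 600 to -0.09 at 1000 or more in bidirectional and -0.05 to -0.08 in single-gene regions. SRT2104 wild-type replicate 1 was the library with the fewest reads and the only female wild type. It had a median deviation of -0.14 at regions of 800 or more and -0.01 at regions under 400. With sex as a covariate in limma, 121 members (8.25%) had an unadjusted p under 0.05, beside 7.88% of all regions, and 4 of them were higher.

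Among members, Fiz1, a zinc finger protein, with Zfp524 had the smallest p. It had 841.6, 790.1, 828.5 and 862.9 normalised counts in vehicle wild types and 651.4, 703.5 and 781.6 in SRT2104 wild types. The groups did not overlap, and the log2 difference was -0.23 ± 0.06 (limma adjusted p = 0.332). Trim12a, a member of a mouse cluster of antiviral TRIM genes, with Gm15133 had 134.5, 117.8, 98.74 and 105.6 against 63.15, 71.54 and 63.93, or -0.77 ± 0.19 (limma adjusted p = 0.332), and its reads may be shared with close relatives. Knockouts given SRT2104 had 120.1, 100.4, 57.82 and 117.3 there, so 1 of 4 lay in the low range. On the higher side, Pax6, a factor of neural progenitors, with its antisense Pax6os1 had 126.7, 141.6, 97.84 and 123.1 against 169.6, 145.5 and 167.9. The log2 difference there was 0.40 ± 0.13 (limma adjusted p = 0.332). Palmd had 0.18 ± 0.06 and the pair 4930557F10Rik and 4930586N03Rik 0.44 ± 0.17.

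Knockout against wild type under SRT2104 gave no member that passed in limma (0.00714% of all regions), edgeR or DESeq2. At an unadjusted p under 0.05 there were 73 (4.98%), 65 of them higher in knockouts, against 6.27% of single-gene and 6.2% of all regions, and the median log2 difference was 0.03 in both classes. The count was 19 (1.30%, beside 2.13% of all) without SRT2104 wild-type replicate 1 and 134 (9.14%, beside 10.0%) without its replicate 3. It was 31 (2.11%, beside 2.78%) without SRT2104 knockout replicate 1 and 43 (2.93%, beside 4.53%) without its replicate 4. With TMM factors 41 of 82 such members (5.59%, beside 5.78% of all) were higher, and the medians were 0.00. Tmem200b, a membrane protein, with Gm12992 had the smallest p, with 250.8, 349.3 and 317.9 in wild types and 443.2, 383.5, 389.8 and 391.3 in knockouts. The groups did not overlap, at 0.40 ± 0.09 (limma adjusted p = 0.780). The other 5 named by p were Armc5, 0.20 ± 0.05, Taf4a, 0.27 ± 0.08, Pax6, -0.41 ± 0.13, Palmd, -0.17 ± 0.06, and Gpr108 with Trip10, -0.24 ± 0.08, each with a limma adjusted p of 0.780. This comparison shares its SRT2104 wild types with the one before. Summed oligodendrocyte genes had 3472 to 3627 in SRT2104 knockouts and 3028 to 3467 in SRT2104 wild types, which do not overlap, and their part in these results was not tested.

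The interaction asks whether SRT2104 went with another difference in knockouts than in wild types. No member passed in limma (0% of all regions) or edgeR, and DESeq2 called 1, Palmd (adjusted p = 0.0448), beside 0.0928% of all regions. At an unadjusted p under 0.05 there were 66 (4.50%), against 8.26% of single-gene and 7.88% of all regions, and with TMM factors 93 (6.34%), beside 9.4% of all. Of the 66, 34 were higher. Without untreated knockout replicate 1 there were 138 (9.41%, beside 11.2% of all), 119 of them higher. Without SRT2104 wild-type replicate 1 there were 39 (2.66%, beside 6.01% of all). The median was 0.00, or 0.07 and -0.06 without untreated knockout replicates 1 and 2 in turn. Palmd had 676.6, 676.0 and 620.5 in SRT2104 wild types, above the vehicle wild types, and 585.6, 555.5, 582.6 and 617.4 in SRT2104 knockouts, below the untreated knockouts. The interaction was -0.40 ± 0.08 on the log2 scale (limma adjusted p = 0.202). Other members with small p were 4930525G20Rik with Gm10037, 0.65 ± 0.16, Dlx4, 0.81 ± 0.24, Sertad4 with Gm15867, 0.27 ± 0.09, Dab2ip, a Ras GTPase activator, with Gm13446, -0.70 ± 0.21, and Fbxw5, an F-box protein, with C8g, -0.22 ± 0.08, with limma adjusted p from 0.262 to 0.497. Without vehicle replicate 3, 10 members passed (2 higher, 8 lower), beside 1.94% of all regions, and Palmd was among them at -0.42. Without SRT2104 knockout replicate 3, 1 passed, 4930525G20Rik with Gm10037.

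**Figure D5:**
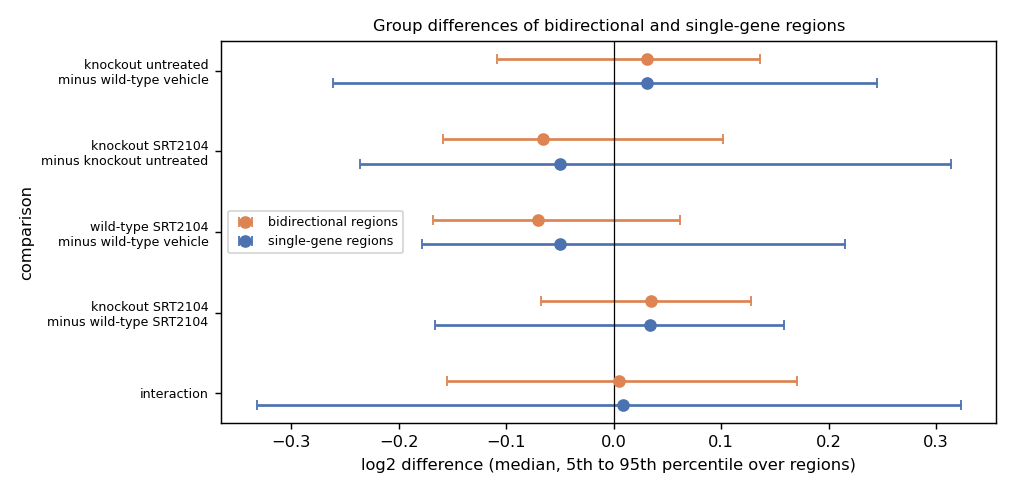
Median log2 difference with the 5th to 95th percentile over regions for bidirectional and single-gene regions in the 4 comparisons and the interaction. Values are on the deposited scale. Medians lie between -0.07 and 0.03 in both classes, and the bidirectional range is the narrower in each of the 5.

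Beside the narrower range, bidirectional regions had a higher level and a smaller spread within groups. The median within-group SD on the log2 scale was 0.0719 in bidirectional and 0.0875 in single-gene regions. Same-strand regions lay between them, at 0.0760, so the smaller spread is not particular to bidirectional regions. Their 5th to 95th percentile range was also narrower than the single-gene one in each comparison. In untreated knockouts against vehicle wild types it was -0.11 to 0.20, against -0.26 to 0.25. At matched vehicle means of 400 to 600 it was 0.0763 and 0.0778, and at 600 to 800 0.0678 and 0.0729. At 800 to 1000 it was 0.0652 and 0.0744, and at 1000 or more 0.0699 and 0.0777. The bidirectional spread was thus also the smaller at these matched levels, and the part of level in the narrower range was not tested. Below a mean of 100, which held 31 bidirectional and 1292 single-gene regions, it was 0.270 and 0.283.

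Over the gene lists no member passed in these comparisons, and the medians are descriptions. In untreated knockouts against vehicle wild types, the median log2 difference over bidirectional regions was 0.09 for excitatory and presynaptic genes (9 of 9 above 0), 0.05 for oxidative phosphorylation subunits (27 of 31), 0.03 for mitochondrial ribosomal proteins (29 of 34) and 0.01 for DNA repair (32 of 51), beside 0.03 and 65.4% above 0 over all regions. With TMM factors these were 0.06 (9 of 9), 0.02 (22 of 31), 0.00 (17 of 34) and -0.02 (16 of 51), so the sign for DNA repair and mitochondrial ribosomal proteins depended on the scaling. Developmental transcription factors had -0.12 (4 of 15 above 0) and replication histones -0.08 (6 of 20), or -0.16 (2 of 15) and -0.11 (3 of 20) with TMM factors, and these lists also have the lowest levels per kb. With SRT2104 in knockouts, replication histones had 0.10 (15 of 20 above 0), or 0.15 (17 of 20) with TMM factors. Oxidative phosphorylation subunits had -0.08 (0 of 31), or -0.03 (7 of 31), beside -0.05 over all regions and -0.07 over bidirectional ones. Above 0 were 28.6% of all and 15.1% of bidirectional regions, or 48.4% and 38.6% with TMM factors. Replication histones share clusters and near-identical sequences, so their regions are not independent and their reads uncertain.

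Members of the methionine, folate and cobalamin pathway bear on the deficiency named in the study's title. Fastkd3 with Mtrr, on chr13:68720264-68721900, had 681.1, 686.3, 788.1 and 698.4 normalised counts in vehicle wild types and 675.5 and 556.7 in untreated knockouts. It had 534.1, 693.9 and 570.2 in SRT2104 wild types and 658.7, 665.8, 582.6 and 721.5 in SRT2104 knockouts. The untreated knockouts lay below the vehicle range, by -0.22 ± 0.11 on the log2 scale (limma adjusted p = 0.582), and SRT2104 wild types overlapped it, at -0.26 ± 0.09 (limma adjusted p = 0.336). Ccdc163 with Mmachc, the chaperone that first processes cobalamin, had 397.4, 351.3, 348.3 and 355.4 in vehicle wild types and 346.7 and 383.0 in untreated knockouts, which overlap, at 0.01 ± 0.08. Mmab with Mvk had 538.8, 511.2, 580.7 and 566.5 against 586.7 and 530.7, at 0.02 ± 0.07.

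Other members of cobalamin and folate metabolism had log2 differences of -0.07 to 0.04 between these groups, on a scale where the median of all regions was 0.03. Cenpq with Mut, methylmalonyl-CoA mutase, had -0.03 ± 0.07, Mmaa 0.04 ± 0.06, Mmadhc, which sorts cobalamin between its enzymes, -0.07 ± 0.07, Mcee, methylmalonyl-CoA epimerase, 0.00 ± 0.06, and Slc25a32, a mitochondrial folate carrier, 0.01 ± 0.06. Their vehicle levels ran from 334 per kb at Mut to 489 at Slc25a32, while Dmgdh, dimethylglycine dehydrogenase, with Bhmt2 had 55.4 ± 11.9 per kb. Sirtuin and NAD genes were at bidirectional regions too. The log2 difference was 0.02 ± 0.06 at Sirt3, 0.06 ± 0.06 at Sirt2, 0.05 ± 0.08 at Sirt6 and 0.03 ± 0.06 at Nmnat1, a nuclear NAD synthase. The histone demethylases Kdm5a and Kdm1b, which act on H3K4, had 0.02 ± 0.06 and 0.03 ± 0.06, and Kdm2b, an H3K36 demethylase, had 0.07 ± 0.06.

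The authors' deposited table, which gives its own log2 fold and adjusted p for knockout against wild type, has no bidirectional region with an adjusted p under 0.05, the lowest being 0.0992.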

How the data were processed

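The 13 H3K4me3 libraries of hippocampus were grouped by the genotype and treatment labels. The deposited signal is a read count per region divided by 1 factor per library. Per the submitters' processing notes, which give no version or role, Bowtie2, SAMtools, bedtools, MACS2, DESeq2 and the build mm9 were used. Regions and promoter windows, 2000 bp upstream to 500 bp downstream of a start, are as in the deposited table, whose log2 fold changes and p-values are the authors' own. How regions were called is not given in the sources used here, nor is an input control.

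From these values, 17212 table lines were reduced to 14006 distinct regions. Starts were read from the windows, and for 442 of 591 pairs checked the start distance was within 10 bp of that in RefSeq. Genes were matched to RefSeq by symbol or synonym (2723 of 2728 at bidirectional regions). Whole reads were recovered from 100% of values, within a tolerance of 0.001 reads. The main test was the two-sided moderated test of limma 3.58.1 (R 4.3.3), with trend and robust options, applied to log2(value + 1). All 13 libraries entered, with a term for each of the 4 groups, Benjamini-Hochberg adjustment over all regions and a threshold of 0.05. Differences are log2(value + 1) differences, which understate the change of low regions. A minimum of 10 in 2 libraries removed 0 regions. edgeR 4.0.16 and DESeq2 1.42.0 were run on recovered reads, and the other alternatives are in the closing section. The test was also run on simulated reads with the same extra spread in every region and no library set apart. That run does not cover a library such as vehicle replicate 3. PCR copies cannot be told apart, so depth covers counting error only.

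Named regions were the 3 with the smallest p in each direction per comparison, listed known pairs, the 5 highest and 5 lowest per kb, the 3 on either side of the length limit and up to 2 examples per list. Members of the cobalamin, folate, sirtuin and H3K4 pathways were named beside them. A few named regions are not reported here. The members and gene lists were chosen with earlier results of these data known.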

Additional observations from a re-analysis of the deposited data

Results flagged for a closer look

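Of 204 groups of 4 libraries tested among the named members, 18 had a library far from the other 3 (gap over range above 0.829), where chance flags about 1 in 20. Vehicle replicate 3 was the highest of its group in 9 of the regions below. It had 1313 normalised counts at Atp5j/Gabpa, 1074 at Mrpl48/Rab6a, 973 at Col4a1/Col4a2, 929 and 298 at the longer and shorter regions of Bscl2/Gng3, 912.9 at Slc7a5, 903 at Surf1/Surf2, 788.1 at Fastkd3/Mtrr and 165.2 at Shh. It was the lowest at Plekhg3, with 485.6. Some of these members were named because they passed without this library, so its place there was in part chosen. Over all 1466 bidirectional regions it stood far above the others in 52 and far below in 2 (3.68%), against 3.12% of single-gene regions, while each other vehicle library stood apart in 0.614 to 1.36% of bidirectional regions.

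Vehicle replicate 1 was highest at Ccdc163/Mmachc, with 397.4, and vehicle replicate 4 at Nptx1, with 237.5. SRT2104 knockout replicate 1 was highest at Synj1 (1057), S100pbp/Yars (1239), Tmem200b (443.2) and Dio3 (136.2) and lowest at 4930557F10Rik (44.57), and replicate 4 was highest at Hspa1a/Hspa1l (220.5).

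At 12 of the named members SRT2104 went one way in every treated wild type and the other way in every treated knockout, beside the mean of their untreated group. The interactions on the log2 scale were -0.40 at Palmd, -0.70 at Dab2ip/Gm13446, 0.27 at Sertad4 and -0.22 at C8g/Fbxw5, which were among those named for the interaction. They were -0.94 at Sv2b, -0.68 at 4930557F10Rik, -0.67 at Shh, 0.38 at Tmem200b, 0.36 at Plekhg3, -0.22 at Hist3h2a, -0.21 at Trim46 and -0.18 at Ak5. Tmem200b and 4930557F10Rik were named for comparisons that form the interaction. Sv2b, Shh, Plekhg3, Trim46 and Ak5 were named because they passed a comparison without vehicle replicate 3. The count of 12 was thus in part chosen, and the share over all members was not taken. None of the 12 passed limma's adjusted p over all regions.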

How the results depend on the processing

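Calls among bidirectional regions were 0 in all 5 comparisons, and stayed 0 with other pseudocounts, filters, TMM scaling, edgeR, a sex covariate and either other length limit. For untreated knockout against vehicle wild type, they were 2 when only these groups were fitted (Hspa1a and Taf4a, beside 0.336% of all regions) and 1 with DESeq2, and leaving out 1 library gave 0 to 22, the 22 without vehicle replicate 3. For SRT2104 in knockouts they were 12 with only these groups, and leaving out 1 library gave 0 to 4. For the interaction they were 1 with DESeq2, and leaving out 1 library gave 0 to 10. For the other 2 comparisons leaving out 1 library gave 0. The cause was not tested. The level ratio to single-gene regions, 1.225, was 1.235 under 2000 bp and 1.193 at a mean of 50 or more, and 1.224 to 1.227 leaving out 1 library. Among the alternative values of the 30 named results 667 kept their direction and side of the threshold and 17 passed it. Medians over bidirectional regions moved by more than the spread in 12 values. Without untreated knockout replicate 1 they were -0.03 for knockout against wild type, 0.00 for SRT2104 in knockouts and 0.07 for the interaction, and without replicate 2 they were 0.10, -0.13 and -0.06. With TMM factors the medians of all regions moved toward 0, as given beside each comparison.

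A replicate block gave 0 calls in each comparison. Libraries with the same replicate number deviated with correlations of -0.293 to 0.193 (16 pairs), and 2 of 13 libraries were most like one of their own number. This gives no sign that the numbers pair the samples, but cannot exclude it.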

Other observations

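The pairs 4930525G20Rik with Gm10037 and Fastkd3 with Mtrr both lie on chromosome 13, at chr13:67931403-67932525 and chr13:68720264-68721900. The first had 240.0, 270.7 and 233.5 normalised counts in SRT2104 wild types, 246.6 and 272.1 in untreated knockouts, 300.9, 362.1, 239.2 and 326.5 in SRT2104 knockouts and 341.0, 351.3, 338.4 and 300.8 in vehicle wild types. SRT2104 wild-type replicates 1 and 3 and SRT2104 knockout replicate 3 were among the 4 lowest libraries at both regions. This was noticed after their values were seen, and a shared source of the difference was not tested.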
